A study of Mus musculus with 2 samples.

Results

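The 6 genes of the alarmin IL-33 and its type 2 targets were followed through the brain of mice with a condition like neuromyelitis optica spectrum disorder (NMOSD), an autoimmune disease in which antibodies against the water channel of astrocytes drive inflammation and loss of astrocytes and myelin. The genes are Il33, which encodes the alarmin itself, Il1rl1, which encodes its receptor ST2, and 4 products of cells that carry this receptor: the cytokine genes Il5 and Il13, the growth factor gene Areg, and Calca, the gene of calcitonin and of the neuropeptide CGRP. They were picked by name, from earlier results of these same data, and are 6 of the 32285 genes in the files, of which 23948 had at least 1 UMI. Il33 was sought in the cells that supply it and the other 5 in the cells that receive or respond. The brain was taken at 24 h from C57BL mice of 8 to 13 weeks, minced, digested with enzymes at 37 °C and divided into CD45-negative cells, which are mostly glia, vessel cells and neurons, and CD45-positive cells, which are leukocytes and microglia. Each fraction is 1 library, and no other library was analysed here. The labels do not say how many mice entered each library, how the model was induced or by which method the fractions were sorted. With 1 library per fraction no difference has a replicate check and no p-value is given. All levels therefore describe NMOSD-like brain at 24 h and not a change from healthy brain.

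IL-33 is stored in the nucleus and is released when a cell is damaged. It binds ST2, which pairs with the accessory chain encoded by Il1rap and signals through MyD88 to NF-kB. Group 2 innate lymphoid cells (ILC2), regulatory T cells, T helper 2 cells and mast cells are known ST2 carriers. Activated ILC2 are known for IL-5, which feeds eosinophils, for IL-13, which acts on epithelium and macrophages, and for amphiregulin, the Areg product, a ligand of the EGF receptor used in tissue repair. CGRP is a peptide of sensory nerves that ILC2 can both make and sense, through a receptor built from the Calcrl and Ramp1 products. In the brain, oligodendrocytes and astrocytes are the known stores of IL-33.

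Il33 (ENSMUSG00000024810) lies on mm10 chromosome 19 from 29925114 to 29960718 on the plus strand. Il1rl1 (ENSMUSG00000026069) lies on chromosome 1 from 40429570 to 40465415, plus strand. Il5 (ENSMUSG00000036117; chromosome 11, 53720794 to 53725106, plus strand) and Il13 (ENSMUSG00000020383; chromosome 11, 53631324 to 53634702, minus strand) are neighbours with 86091 bases between them. Areg (ENSMUSG00000029378) lies on chromosome 5 from 91139599 to 91148432, plus strand, and Calca (ENSMUSG00000030669) on chromosome 7 from 114631478 to 114636357, minus strand. All 6 are protein coding. The assay counts 3' ends, so calcitonin and CGRP transcripts of Calca, and the soluble and membrane forms of ST2, were not told apart.

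The 150 bases before the RefSeq start sites (build GRCm38.p6) of the 4 effector genes are shown here, 5′ to 3′ on the gene's strand. Those of Il33 and Il1rl1 are not shown. Capitals mark matches on either strand to AGATAA (the core bound by GATA factors), TGACG (the core of the cyclic AMP response element, whose full form is TGACGTCA and contains it), TGANTCA (the AP-1 element) and TATAAA (the TATA box). The windows are Areg chr5:91139449-91139598 (plus), Il13 chr11:53634703-53634852 (minus), Calca chr7:114636358-114636507 (minus) and Il5 chr11:53720644-53720793 (plus).
Areg: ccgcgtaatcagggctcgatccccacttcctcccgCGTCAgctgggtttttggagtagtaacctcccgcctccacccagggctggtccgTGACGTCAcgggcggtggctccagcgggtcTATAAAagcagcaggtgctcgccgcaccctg
Il13: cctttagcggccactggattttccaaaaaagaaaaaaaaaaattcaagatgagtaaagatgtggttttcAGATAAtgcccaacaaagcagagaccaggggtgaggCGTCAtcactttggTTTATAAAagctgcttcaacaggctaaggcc
Calca: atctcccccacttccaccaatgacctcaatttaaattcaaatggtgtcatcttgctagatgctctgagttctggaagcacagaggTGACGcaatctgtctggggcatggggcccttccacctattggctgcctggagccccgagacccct
Il5: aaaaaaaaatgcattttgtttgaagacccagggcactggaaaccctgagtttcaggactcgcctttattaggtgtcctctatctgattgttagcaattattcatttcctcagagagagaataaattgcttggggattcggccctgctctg
The Areg window held the full cyclic AMP element 61 bases before the start, and the opposite-strand TGACG match at 58 bases is part of it. A separate TGACG core lay at 115 bases and a TATAAA at 31 bases. Il13 held AGATAA at 81 bases, the TGACG core at 45 bases, and overlapping TATAAA matches at 31 and 29 bases. Calca held the TGACG core at 65 bases, and an AGATAA at 218 bases lies outside the shown stretch. No searched motif was found in 250 bases before the Il5 start. Among 32851 windows of 250 bases before start sites, 9.99% held AGATAA, 1.55% held TGACGTCA, 17.8% held TGACG, 6.75% held TGANTCA and 12.4% held TATAAA. A match describes letters and is neither a binding site nor a cause of a level.

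The CD45-negative library kept 12817 of 14524 barcodes, with 82577080 UMIs (molecular tags, so that a transcript molecule counts once), and the CD45-positive library kept 8432 of 8662, with 73960481 UMIs. The median cell had 5412 and 6088.5 UMIs. Ptprc, the CD45 gene, was at 7.90 and 612 CPM (UMIs per 1000000 UMIs of the library or class). In all, 27 barcodes occurred in both libraries, of which 25 were kept. These 25 barcodes held 16 Il33 UMIs in the CD45-negative library, and 9 Il1rl1 and 20 Calca UMIs in the CD45-positive library. Every interval is a 95% interval that covers counting error only. UMIs of several of these genes were clumped in single cells, so the true uncertainty is wider.

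The alarmin and its targets lay on opposite sides of the CD45 gate. Il33 was at 648 CPM (642 to 653) in the CD45-negative library, from 53490 UMIs in 5335 cells, and at 5.35 CPM (4.84 to 5.91) in the CD45-positive library, which is 121-fold (110 to 134). The receptor gene Il1rl1 had 1539 UMIs in 512 CD45-positive cells (20.8 CPM) and 5 UMIs in the CD45-negative library (0.0605 CPM), a 344-fold difference (147 to 1060). Calca was at 203 against 0.690 CPM (295-fold, 227 to 389) and Areg at 7.04 against 0.0848 CPM (83.1-fold, 40.0 to 208). Il5 had 101 UMIs in 41 CD45-positive cells and Il13 had 606 UMIs in 15 cells, and neither had a CD45-negative UMI. Against a floor of 3 UMIs over that library they were at least 37.6-fold and at least 226-fold higher in the CD45-positive library. The Il13 bound rests on 1 cell with 560 of the 606 UMIs, and was 17.1-fold without that cell and 3.73-fold without the 5 cells with most UMIs. At least 4-fold higher levels in the CD45-positive library were found for 5 of the 6 genes, and for 9.88% of the 18379 genes with at least 20 UMIs. Il33 was past the same fold on the CD45-negative side, as were 29.7% of genes. The genes were picked for this division and the gate selects cells by type, so nothing is read from these shares.

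Within the CD45-negative library Il33 was a transcript of oligodendrocyte-like cells above all other classes. The 2795 cells with this name, carrying all 10 myelin-cell markers searched for (among them Mbp, Mog and Mag), held 91.5% of the library's Il33 UMIs. Their level was 1857 CPM (1841 to 1873), 22.9-fold (22.2 to 23.6) that of all other CD45-negative cells, and 4.56% of 17254 genes were at least 4-fold higher there. An Il33 UMI was seen in 87.6% of these cells, or in 60.1% after every cell had been thinned to 1000 UMIs. The middle cell had 7 Il33 UMIs, the quartiles were 2 and 21 and the highest cell had 367. Fibroblast-like cells came next at 356 CPM (305 to 414), although 67 of their 171 UMIs were in 1 cell and the level without it was 229 CPM. Neuron-like cells at 107 CPM and astrocyte-like cells at 105 CPM did not differ beyond their counting intervals. Below them stood microglia-like cells at 71.6 CPM, with 28 of 41 UMIs in 1 cell, then pericyte-like cells at 58.3, choroid plexus epithelial-like at 56.7, endothelial-like at 55.6, smooth muscle-like at 47.0 and neuroblast-like cells at 36.2 CPM, and each of these overlapped the next in its interval.

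**Figure D1:**
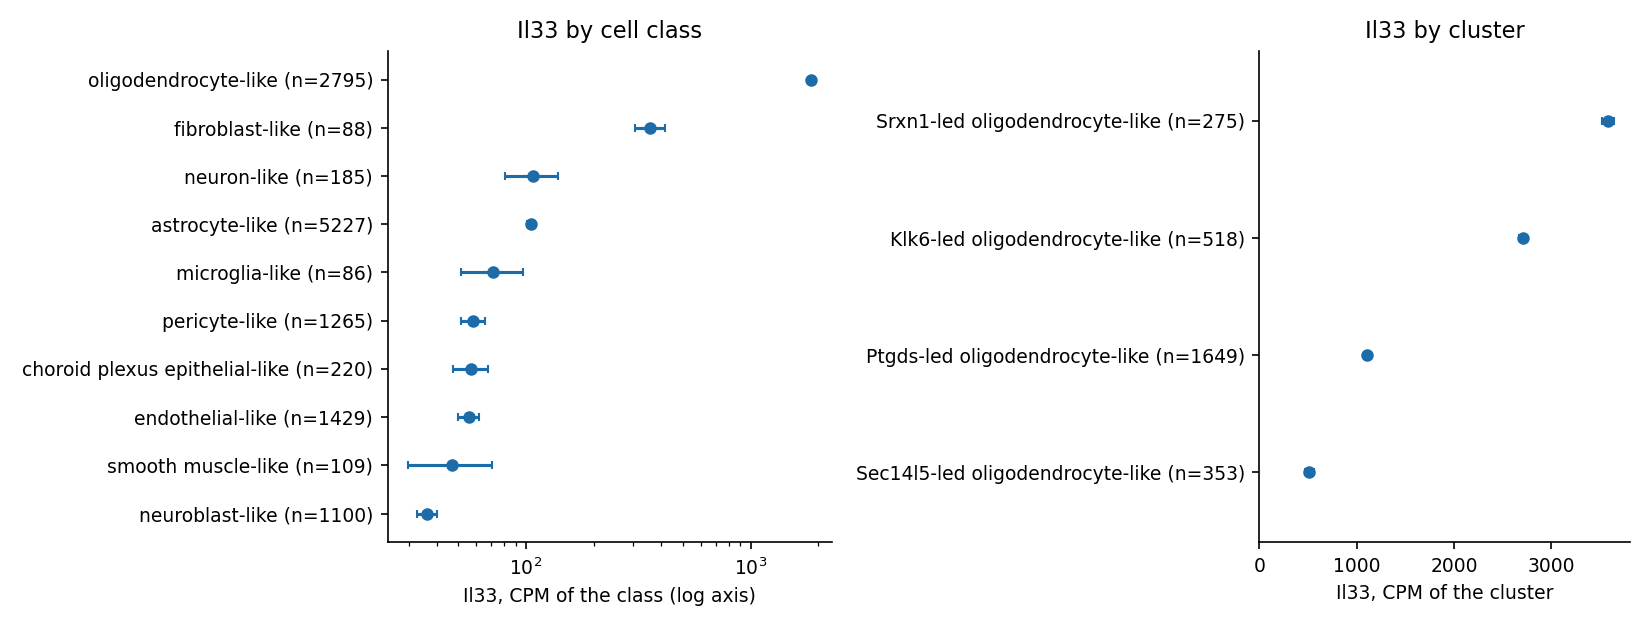
Il33 level in CPM by cell class of the CD45-negative library (left, log axis) and in the 4 oligodendrocyte-like clusters (right, linear axis from 0), with bars for 95% counting intervals. Oligodendrocyte-like cells stand alone at 1857 CPM, and the other 9 classes lie between 36.2 and 356 CPM.

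The plot of Il33 by class holds low values in every class, and droplets can take up transcripts from other cells. Neuroblast-like cells, the lowest class, showed Il33 in 23.5% of their number, and in 4.01% once thinned (median depth 7989.5 UMIs). Astrocyte-like cells showed it in 36.1%, and in 10.1% once thinned (median depth 5235 UMIs). Endothelial-like cells stood at 20.2% and 5.65%. The level was therefore also set beside the oligodendrocyte markers in each class. Oligodendrocyte-like cells held 55.0 Il33 UMIs per 1000 UMIs of the 10 oligodendrocyte markers, endothelial-like cells 25.7, smooth muscle-like cells 42.0, neuroblast-like cells 43.1 and pericyte-like cells 44.1. Choroid plexus epithelial-like cells held 65.5, neuron-like cells 68.8, microglia-like cells 82.2 (58.2 to 113), astrocyte-like cells 97.0 (93.4 to 101) and fibroblast-like cells 141 (119 to 165), the last falling to 114 (92.2 to 140) without the cell with most Il33 UMIs. The part of uptake in these levels was not tested. The 66 astrocyte-like cells in the CD45-positive library held Il33 at 105 CPM (71.2 to 149), from 31 UMIs in 12 cells. The highest of these cells had 7 and 5 UMIs. This class stood at 105 CPM in the other library too. The 66 cells held 397 (253 to 610) Il33 UMIs per 1000 oligodendrocyte-marker UMIs, from 78 such marker UMIs. Uptake was not tested for them either.

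Astrocyte-like clusters differed among themselves. The 651 cells led by Ptx3, Tgm1 and Gfap, genes of reactive astrocytes, held Il33 at 198 CPM (184 to 212), against 92.5 and 77.8 CPM in the largest clusters of 2001 and 1897 cells. A shallow cluster of 678 cells, at a median of 1663 UMIs, was at 197 CPM (174 to 222).

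Oligodendrocyte-like cells were not uniform in Il33 either. The main cluster of 1649 cells, led by myelin genes such as Ptgds, Mal, Mag and Mbp, was at 1105 CPM (1089 to 1122). A cluster of 518 cells led by Klk6, a protease gene of mature oligodendrocytes, was at 2711 CPM (2672 to 2750), with Il33 itself among its leading genes. A cluster of 275 cells led by Srxn1, an antioxidant gene, was at 3587 CPM (3526 to 3649). The 353 cells of a shallow cluster led by Sec14l5 were at 512 CPM (464 to 563), with a median of 2251 UMIs. The 4 intervals do not overlap one another.

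A similar grading appeared when the cells were split by a Klk6 or a Srxn1 UMI, and it moved with depth. These genes lead the clusters named after them, so the split is not independent of the clusters. Of the 2795 cells, the 837 with a Klk6 UMI held Il33 at 2500 CPM and the other 1958 at 1400 CPM. The 684 cells with a Srxn1 UMI held it at 2786 CPM and the other 2111 at 1396 CPM. The 1579 cells with neither were at 1127 CPM. Cells with a Klk6 or Srxn1 UMI also had more UMIs, with medians of 12765 and 12290 against 6924 in cells with neither. Sorted by depth into 4 groups of equal size, from shallow to deep, all oligodendrocyte-like cells stood at 844, 1354, 1447 and 2450 CPM. Cells of the main cluster in these groups stood at 909, 1102, 1078 and 1182 CPM. Those of the Klk6-led cluster stood at 1556, 2333, 2473 and 2861 CPM. Those of the Srxn1-led cluster stood at 1468, 3152, 2928 and 3803 CPM. In each of the 4 depth groups the Klk6-led and Srxn1-led cells were above the main cluster, and in these 3 clusters the deepest group was above the shallowest. The shallow cluster had 325 cells at 531 CPM in the shallowest group and 28 cells at 416 CPM in the next. The part of depth in this order was not tested beyond these values.

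**Figure D2:**
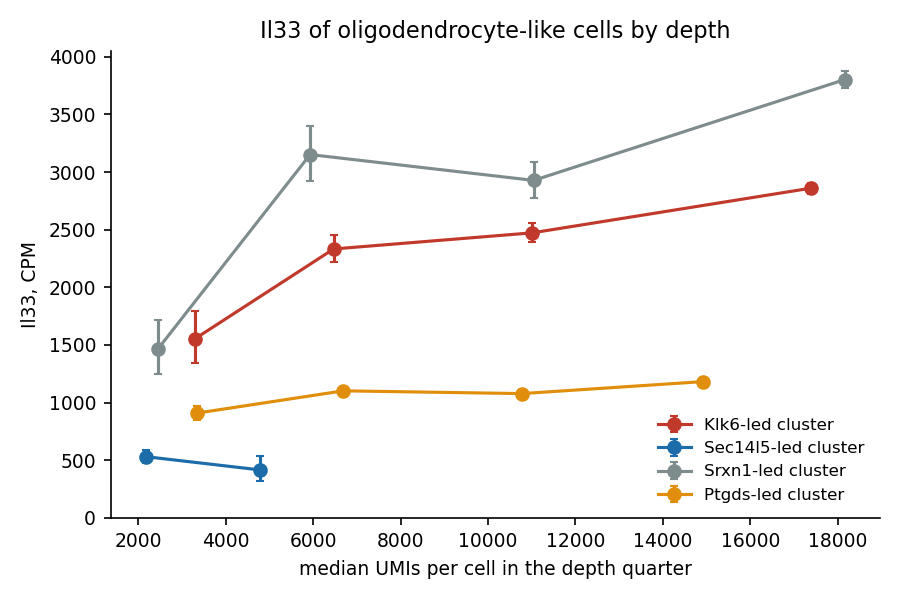
Il33 level in CPM (linear axis from 0) against the median UMIs per cell in 4 depth groups of oligodendrocyte-like cells, a line for each of the 4 clusters, with bars for 95% counting intervals. In each depth group the Klk6-led and Srxn1-led clusters lie above the main cluster, and the shallow cluster has cells in the 2 lower groups only.

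The Il33 that reached the CD45-positive library sat in the few non-immune cells there. Of its 396 UMIs, 323 (81.6%) were in 39 oligodendrocyte-like cells, which held 1174 CPM (1050 to 1310), and 31 were in the 66 astrocyte-like cells. Microglia-like cells held 30 UMIs (0.840 CPM), monocyte-like cells 6, T cell-like cells 5 and ILC2-like cells 1. No UMI was found in the NK cell-like, B cell-like, dendritic cell-like, gamma delta T cell-like or unnamed cells. With the non-immune classes of this library and the immune classes of the other left out, the difference between the libraries was 1143-fold.

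The receptor gene was concentrated in a small class of lymphocytes. Il1rl1 was at 686 CPM (644 to 731) in 177 ILC2-like cells, which held 974 of its 1539 UMIs (63.3%), and this was 88.1-fold (79.4 to 97.9) the level of the other CD45-positive cells. An Il1rl1 UMI was seen in 157 of the 177 cells (88.7%), or in 49.1% after thinning. The middle cell had 4 UMIs and the highest 24. The class was named from 14 ILC2 markers that include none of the 6 genes, and 11 of the 14 were found in at least 20% of its cells. Gata3, the master factor of type 2 lymphocytes, was at 771 CPM and in 87.6% of cells, Rora, needed for ILC2 development, at 488 CPM, and Il17rb, the IL-25 receptor chain, at 116 CPM against 1.55 CPM in T cell-like cells. Hes1 was at 324 and Lmo4 at 1108 CPM. The markers below 20% of cells were Klrg1 (17.5%), Nmur1 (6.78%) and Il18r1 (5.65%). Il18r1 was at 11.3 CPM, against 155 CPM in T cell-like and 293 CPM in gamma delta T cell-like cells. Thy1 was at 98.0 CPM, against 479 and 539 CPM in those classes, and Id2 at 715 against 702 and 922 CPM.

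Markers of other lymphocytes and of other ST2 carriers were present to different degrees in this class. The regulatory T cell list, the second-best match of the cluster, was summed at 1441 CPM, against 866 CPM in T cell-like cells, with 4 of its 8 markers in at least 20% of cells. These were Tnfrsf18 at 796, Il2ra at 305, Tnfrsf9 at 219 and Ikzf2 at 56.4 CPM, while Foxp3 was at 0.705 CPM from 1 UMI and Izumo1r was at 0. The gamma delta T cell list was at 93.0 against 56.2 CPM, with Tcrg-C1 at 68.4 CPM and none of its markers in 20% of cells. The summed T cell list was at 682 CPM, against 7938 CPM in T cell-like cells, and Cd3e was at 2.82 against 578 CPM and Trac at 4.93 against 649 CPM. Cd3g at 132 CPM and Trbc2 at 303 CPM, the latter in 68.9% of cells, were T cell genes found in this class. The NK cell list was at 40.9 CPM. Of the mast cell markers Kit was at 183 CPM, in 60.5% of cells, and the mast cell proteases Cpa3, Mcpt4 and Tpsb2 and the Fc receptor chain gene Ms4a2 were at 0. The basophil protease gene Mcpt8 was at 0. Arg1, an enzyme gene that tissue ILC2 and macrophages share, was at 134 CPM in 44.6% of the cells.

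T cell-like cells followed at 17.3 CPM of Il1rl1 (15.1 to 19.7), with 223 UMIs in 67 of 2527 cells. This second place depended on the clustering: the T cell-like level was 4.96 CPM (3.67 to 6.56) at resolution 2 and 5.64 CPM (4.39 to 7.13) with each library clustered alone, against 6.14 and 6.11 CPM in microglia-like cells. With each library alone, 73 cells were named regulatory T cell-like. Without its 5 cells with the most Il1rl1 UMIs, the T cell-like class was at 11.1 CPM (9.35 to 13.1). In the clustering used here all further classes were lower, with intervals that overlapped from one to the next: microglia-like cells at 6.13 CPM, gamma delta T cell-like at 5.60, B cell-like at 4.89, monocyte-like at 4.42 and dendritic cell-like at 2.23 CPM. The 254 NK cell-like and 66 astrocyte-like cells had no Il1rl1 UMI, which allows up to 1.18% of NK cell-like cells to hold a UMI by a limit of 3 counts. The microglia-like share of 5.88% of cells at a median of 9159 UMIs fell to 0.842% after thinning, and the monocyte-like share was 4.88% at a median of 11936 UMIs and 0.477% after thinning. Neither share is read as expression.

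**Figure D3:**
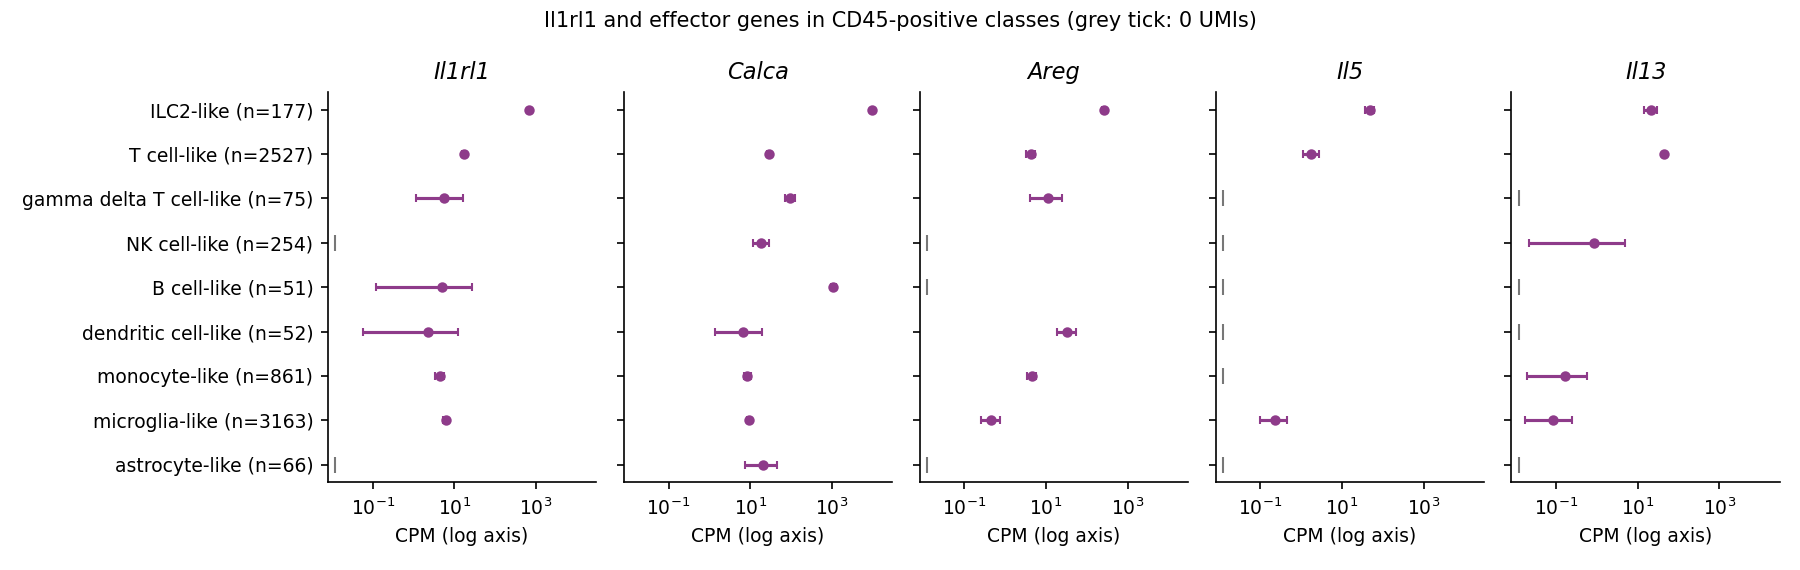
Levels in CPM (log axis) of Il1rl1, Calca, Areg, Il5 and Il13 in the 9 CD45-positive classes of at least 50 cells, with bars for 95% counting intervals and a grey tick where a class had 0 UMIs. ILC2-like cells are highest for all but Il13, which is highest in T cell-like cells at 43.9 CPM.

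Most of the T cell-like Il1rl1 was in cells with the regulatory T cell factor Foxp3. The 69 T cell-like cells with a Foxp3 UMI held 131 Il1rl1 UMIs, 58.7% of the T cell-like total, at 261 CPM (218 to 309). An Il1rl1 UMI was found in 20 of them (29.0%), and the highest cell had 22. The 2458 T cell-like cells without a Foxp3 UMI were at 7.43 CPM (5.99 to 9.12). Among these, cells with a Cd4 UMI and no Cd8 UMI were at 6.01 CPM. The Foxp3 cells also had Il2ra, the high-affinity IL-2 receptor chain, at 683 against 18.8 CPM and Gata3 at 131 against 62.6 CPM. Areg stood at 43.8 against 2.59 CPM, from 22 UMIs in 7 cells, of which 13 UMIs were in 1 cell. Il5 and Il13 had 0 UMIs in the Foxp3 cells, where a CPM of up to 7.34 is within the interval. A Foxp3 transcript can go uncaptured, so the group without one may hold regulatory T cells too.

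**Figure D4:**
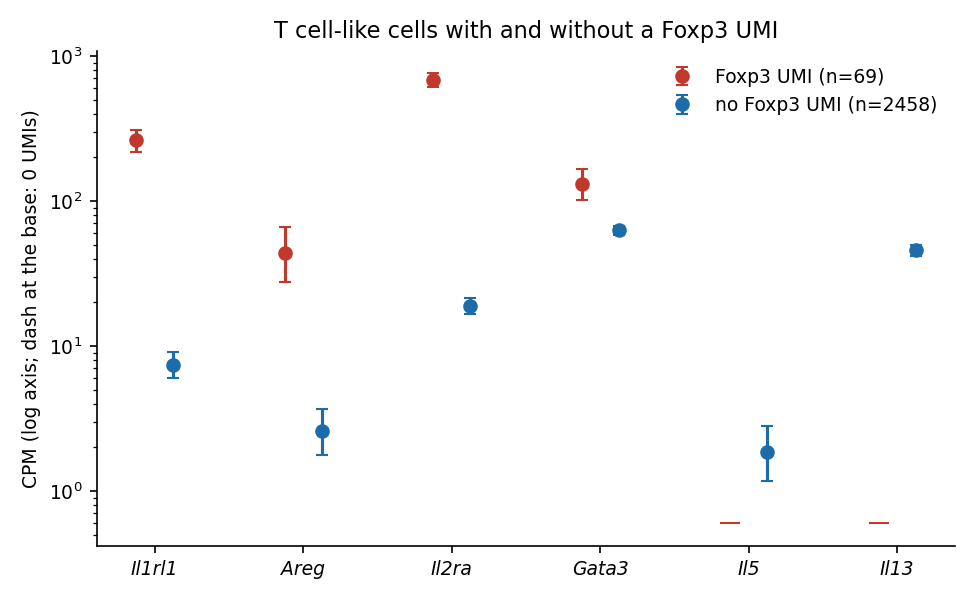
Levels in CPM (log axis) of Il1rl1, Areg, Il2ra, Gata3, Il5 and Il13 in T cell-like cells with (69 cells) and without (2458 cells) a Foxp3 UMI, with bars for 95% counting intervals and a dash at the base for 0 UMIs. Il1rl1 stands at 261 against 7.43 CPM, while Il5 and Il13 had no UMI in the Foxp3 cells.

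At least 4-fold higher levels in ILC2-like than in the other CD45-positive cells were found for Il1rl1, Calca, Areg and Il5, 4 of the 6 genes, against 3.25% of 14783 genes with at least 20 UMIs. Calca, Il1rl1 and Areg are also among the genes that lead the cluster, so these differences are descriptions of it.

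Of the 4 effector genes Calca had the largest share of its UMIs in ILC2-like cells. ILC2-like cells held 13810 of its 15046 CD45-positive UMIs (91.8%), at 9733 CPM (9572 to 9897), 571-fold (539 to 606) the level of the other CD45-positive cells. A Calca UMI was found in 150 of 177 cells (84.7%), or in 80.5% after thinning. The cells ranged from 0 to 727 UMIs, with quartiles of 3 and 102, a median of 29 and 47 cells at 100 or more. High Calca was spread over a broad share of the class.

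Outside the ILC2-like class Calca was lower. A Calca UMI was found in 5.77 to 10.7% of cells of every other CD45-positive class of at least 50 cells. The range ran from dendritic cell-like to gamma delta T cell-like cells, at 6.70 to 97.0 CPM apart from B cell-like cells. B cell-like cells stood at 1081 CPM, but 217 of their 221 UMIs were in 1 cell, which also had 24 Cd79a, 12 Gata3 and 1 Il1rl1 UMIs. In gamma delta T cell-like cells 2 cells held 25 and 21 of 52 UMIs. T cell-like cells at 29.3 CPM (26.4 to 32.4) were above microglia-like cells at 9.49 CPM (8.51 to 10.6), and had 7 cells with at least 5 UMIs, the highest with 33 and 29. The highest monocyte-like cell had 16. After thinning, the share ran from 1.42% in NK cell-like to 6.98% in B cell-like cells. Whether these UMIs came from the cells themselves was not tested. For every 100 Calca UMIs there were 7.05 Il1rl1 UMIs in ILC2-like cells, 59.2 in T cell-like, 64.6 in microglia-like and 51.9 in monocyte-like cells. The ratio was 5.77 (1.15 to 17.8) in gamma delta T cell-like cells, 0.452 in B cell-like cells and 33.3 (0.635 to 415) in dendritic cell-like cells, and NK cell-like and astrocyte-like cells had no Il1rl1 UMI.

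Areg, the repair ligand, was at 262 CPM (236 to 290) in ILC2-like cells, 128-fold (105 to 155) the level of the other CD45-positive cells. Its 372 UMIs there, 71.4% of the library's, were in 41 cells (23.2%, or 9.47% after thinning), and 1 cell held 64. Dendritic cell-like cells, led by Ccl22 and Ccr7, were next at 33.5 CPM (18.8 to 55.3) from 15 UMIs in 5 cells. Gamma delta T cell-like cells at 11.2 CPM rested on 1 cell. Monocyte-like cells at 4.42, T cell-like cells at 4.19 and microglia-like cells at 0.448 CPM were lower. In the CD45-negative library 5 of the 7 Areg UMIs were in 2 neuron-like cells.

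Il5 was seen in few cells and mostly in this class. ILC2-like cells held 68 of 101 UMIs at 47.9 CPM (37.2 to 60.8), 105-fold (68.5 to 165) the other CD45-positive cells. The UMIs were in 28 cells (15.8%, or 2.37% after thinning), and 1 cell held 20. T cell-like cells had 23 Il5 UMIs (1.79 CPM), of which 21 were in 1 cell, and microglia-like cells had 8 (0.224 CPM). Without that T cell-like cell the ILC2-like level was 290-fold (155 to 588) that of the other cells. Both Il5 and Areg are thus reported as present in a minority of ILC2-like cells at this depth.

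Il13 rested on single cells. Its highest class was T cell-like, at 43.9 CPM from 565 UMIs, of which 560 were in 1 cell. Without that cell the T cell-like level was 0.389 CPM. ILC2-like cells were at 21.1 CPM (14.3 to 30.2), from 30 UMIs in 4 cells that held 20, 8, 1 and 1, and at 7.25 CPM without the highest. The ratio of ILC2-like to other CD45-positive cells was 2.66 (1.78 to 3.84), and its direction depended on 1 cell of each side. It was 95.8 (50.6 to 188) without the T cell-like cell, 0.913 (0.435 to 1.69) without the highest ILC2-like cell and 32.8 (13.3 to 77.0) without both. The T cell-like cell with 560 Il13 UMIs had 40189 UMIs in all, so Il13 made up 1.39% of its transcripts. It also held 385 Il2, 189 Ifng, 21 Il5, 15 Trac, 11 Cd3e and 10 Cd4 UMIs, 5 Gata3 UMIs, and no Il4, Il1rl1, Foxp3 or Cd8a UMI. Il2 and Ifng are cytokine genes of activated T cells, Ifng being the cytokine of type 1 helper cells. The Scrublet doublet score of this cell was 0.0773, and it was not called a doublet.

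The 4 effectors and the receptor overlapped in single ILC2-like cells to different degrees. Both Il1rl1 and Calca were seen in 139 of 177 cells and neither in 9. All 28 cells with Il5 had an Il1rl1 UMI, as did 37 of the 41 with Areg (90.2%), against 88.7% of all 177 cells. Il5 and Areg were found together in 10 cells, which is 35.7% of the Il5 cells and 24.4% of the Areg cells. Over all 177 cells Areg was seen in 23.2% and Il5 in 15.8%. Of the 4 cells with Il13, 3 had Il5. With Il33 left out, no gene of the other 5 was seen in 8 cells, 1 gene in 24, 2 in 92, 3 in 42, 4 in 9 and 5 in 2. The number of genes seen rose with depth, from a median of 1109 UMIs in cells with none to 26710.5 in cells with 5. Cells with Il5 had a median of 14759.5 UMIs and those without 6476. Across the 177 cells of this library, Calca per UMI and Il1rl1 per UMI had a Spearman correlation of 0.15, given as a description of cells that share a library and vary in depth.

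**Figure D5:**
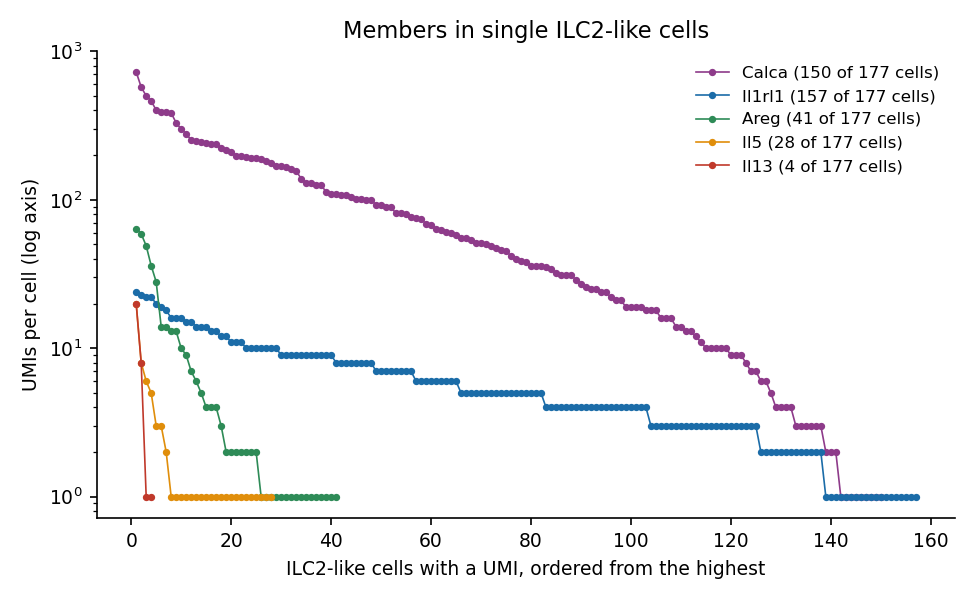
UMIs per cell (log axis) of Il1rl1, Calca, Areg, Il5 and Il13 in ILC2-like cells with a UMI of that gene, ordered from the highest to the lowest, out of 177 cells. Calca and Il1rl1 are spread over most cells, up to 727 and 24 UMIs, while Areg, Il5 and Il13 were seen in 41, 28 and 4 cells.

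Around the 6 genes, the pathway was described with 11 gene lists, each compared between ILC2-like and the other CD45-positive cells, where the median log2 ratio of all tested genes was -0.24. A gene counted as tested with at least 20 UMIs and as higher or lower past 4-fold, and genes whose floor lay above the other level were entered at 0. Over all 14783 tested genes 3.25% were higher and 9.67% lower. Of the alarmin list, 0 of 5 tested genes were higher and 3 were lower (median -2.95). Tslp, which like IL-33 activates ILC2, was at 16.0 CPM in pericyte-like cells, which held 73 of the CD45-negative library's 128 UMIs. Class levels of the list genes leave out unnamed cells and classes of fewer than 50 cells, so a higher level there would not be seen. Il25, an alarmin of epithelial tuft cells, had 26 UMIs in all. Il18 reached 71.3 CPM in oligodendrocyte-like cells. More was found in astrocyte-like cells, whose levels were 124 CPM (CD45-negative) and 132 CPM (CD45-positive). Hmgb1 reached 1184 CPM in oligodendrocyte-like cells and was highest in neuroblast-like cells, with 1729 CPM. Il1a was at 86.9 CPM in CD45-positive microglia-like cells.

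Of the receptor complex and its signalling chain, 2 of 14 tested genes were higher in ILC2-like cells (median -0.35). These were Il1rl1 and the NF-kB gene Nfkb1, the latter at 460 against 111 CPM, and at 543 CPM in dendritic cell-like cells. Tab2 and Ikbkb, the next highest of the list in ILC2-like cells, were at 104 and 64.1 CPM. The accessory chain gene Il1rap was at 3.52 CPM, from 5 UMIs in 4 ILC2-like cells, and highest in oligodendrocyte-like cells at 247 CPM. Myd88, the adaptor, was at 16.9 CPM in ILC2-like cells. The proteases known to trim IL-33 had 0 of 7 genes higher and 1 lower.

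Other receptors of ILC2 were richer, with 7 of 13 tested genes higher and 2 lower (median 2.68). Il7r, the receptor of the lymphoid survival cytokine IL-7, was at 705 CPM, Icos, a costimulator, at 330 and Il2ra at 305 CPM. Gamma delta T cell-like cells stood at 728, 427 and 140 CPM for the same genes, and T cell-like cells at 451, 247 and 44.7 CPM. Vipr2, a receptor of the neuropeptide VIP, was at 31.0 against 0.138 CPM, and Klrg1, a maturation marker, at 32.4 CPM. Nmur1, the neuromedin U receptor of ILC2, had 13 UMIs in ILC2-like cells and 1 in the others. Among type 2 transcription factors 3 of 14 were higher, namely Gata3, Rora and Pparg, with 1 lower (median 0.35). Several genes of these lists are also ILC2 markers that named the class.

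Among type 2 and companion cytokines 5 of 9 were higher (median 2.97), which were Il4, Il5, Areg, Csf2 and Tnfsf11. Csf2, the gene of GM-CSF, was at 457 CPM from 648 UMIs in 48 cells, against 1.13 CPM (log2 ratio 8.66). Il4 was at 30.3 CPM from 43 UMIs. Il9 and Il3 had 0 UMIs in both libraries. Of the receptors of IL-5, IL-13 and IL-4, 1 of 6 was higher, the IL-9 receptor gene Il9r at 33.1 against 0.345 CPM, and 3 were lower (median -2.84). Il5ra, the IL-5 receptor chain, had 7 UMIs in the CD45-positive library, all in B cell-like cells. Il13ra1 was at 0.705 CPM in ILC2-like and 46.9 CPM in the other cells.

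The ligand families of Areg and Calca were looked at next. Of EGF receptor ligands and receptors 2 of 7 tested genes were higher in ILC2-like cells, Areg and Hbegf, the latter at 20.4 CPM. Egfr, the receptor of amphiregulin, had no UMI in ILC2-like cells and was at 132 CPM in astrocyte-like cells. Oligodendrocyte-like cells held the EGF receptor ligands Tgfa at 175 and Btc at 63.5 CPM. Of the CGRP list 3 of 7 were higher, Calca and the receptor partner genes Ramp1 (196 against 23.0 CPM) and Ramp3 (383 against 22.5 CPM). Calcrl, the chain that binds CGRP, was at 9.16 CPM in ILC2-like cells from 13 UMIs, at 8.81 CPM in the other CD45-positive cells and at 146 CPM in fibroblast-like cells. Ramp1 was higher still in gamma delta T cell-like cells at 700 CPM and Ramp3 in dendritic cell-like cells at 787 CPM. Adm2 and Calcr had 0 UMIs in both libraries.

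Genes that type 2 cytokines can induce were described with the genes that attract eosinophils. Alternatively activated macrophage genes had 0 of 11 higher and 6 lower (median -2.44), and eosinophil attractants 0 of 7 higher and 3 lower (median -0.23). With 3.25% of all genes higher, 0 higher genes in lists this short is near the background, so nothing is read from it. Below that fold, Arg1 was 1.79-fold, Pdcd1lg2 2.43-fold and Ccl24 2.26-fold higher in ILC2-like than in the other cells, the 13 Ccl24 UMIs being in 1 cell. Arg1 and Chil3, which IL-13 and IL-4 can induce in macrophages, were highest in monocyte-like cells at 413 and 590 CPM. Retnla, another such gene, had 0 UMIs in both libraries. Ccl11, an eosinophil attractant, was at 104 CPM in pericyte-like cells, which held 472 of the CD45-negative library's 1444 UMIs. Unnamed cells were not among the classes compared, and 1 unnamed cluster, with 187 CD45-negative cells, is led by Il6 and Ccl11. Ccl24 was at 16.9 CPM in monocyte-like cells.

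Genes with the most similar pattern to each of the 6 were ranked by Pearson correlation of log2(CPM + 1) over classes that share a library, as a description. The classes differ in depth, with median UMIs from 1476.5 (microglia-like) to 9289 (choroid plexus epithelial-like) in the CD45-negative library. In the CD45-positive library they ran from 2079 (B cell-like) to 11936 (monocyte-like). Over 10 CD45-negative classes and 14433 genes with at least 100 UMIs, the 5 genes most like Il33 included Tmem88b (0.973), Gm28322 (0.966), Gjb1 (0.961) and Map7 (0.960). Gjb1 encodes a gap junction channel of oligodendrocytes. Over 9 CD45-positive classes and 12078 genes, the genes most like Calca were Hs3st1 (0.956), Chdh (0.932), Lif (0.919), Il17rb (0.912) and Gm10827 (0.882). For Il1rl1 they were Acer2 (0.936), Il5 (0.927), Ptgir (0.913), Cntn2 (0.900) and Fa2h (0.894), of which Cntn2 and Fa2h were at only 0.705 and 4.93 CPM in ILC2-like cells. Acer2 was also first for Il5 (0.992). Areg was most like Nfkbia (0.946), which encodes an inhibitor of NF-kB, and Il13 most like Art2b (0.889), a pattern that rests on the 1 T cell-like cell. In the Calca pattern the B cell-like level of 1081 CPM likewise rests on 1 cell, with 217 of 221 UMIs.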

How the data were processed

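Per the file headers and the submitters' processing notes, the authors made the deposited counts of UMIs per gene and cell with Cell Ranger 6.1.2 on mm10. The annotation release and the cell calling are not stated there. Barcodes with at least 500 UMIs, 200 genes and at most 20% mitochondrial UMIs were kept. Scrublet in scanpy 1.11.5, at 0.8% expected per 1000 barcodes, removed 6.03% of CD45-negative and 2.04% of CD45-positive barcodes, below the expected 11.6% and 6.93%, so doublets may remain. Both libraries were clustered together, with the 6 genes left out of the 2000 variable genes (30 components, 15 neighbours, Leiden resolution 1, leidenalg 0.10.2). The 34 clusters were named from 29 marker lists that hold none of the 6 genes, given at least 3 markers in at least 20% of cells. The numbers of this rule were set after the clusters were seen, and 1.79% and 13.4% of cells stayed unnamed. The monocyte-like class includes a cluster led by H2-Ab1 and H2-Aa, and the B cell-like class is led by Igha and Igkc. Levels are summed UMIs with exact Poisson intervals. Exact conditional binomial intervals were used for ratios and Clopper-Pearson intervals for shares (scipy 1.17.1). The code was tested on simulated data. Positions came from GENCODE M21, of the same build, and promoters from RefSeq. Named genes are the 6, the 4 highest of each list in its main class and list genes at 0 UMIs in both libraries, and others were named after their values were seen. Of the genes most like Il33, 1 is not reported here. The members and lists were chosen with earlier results of these data known. Leaving out shared barcodes, or single cells with the most UMIs, was chosen after seeing the data, while other filters, scalings, resolutions and thinning depths were also run.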

Additional observations from a re-analysis of the deposited data

How the results depend on the processing

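Of 271 alternative values for 40 results, 173 lay inside the original 95% interval, 96 outside it and 2 turned direction. Those 2 were the Il13 ratio of ILC2-like to other CD45-positive cells, at 0.913 without the ILC2-like cell with most UMIs and 0.287 without the top 5, which leaves none and is set at the floor. The same ratio was 95.8 without the highest of the other cells and 32.8 without the highest on each side, where the Il5 ratio was 290 and 210 and the Calca ratio 693 and 663. No paired analysis was possible because each group has 1 library. TMM and median of ratios put the CD45-positive over CD45-negative log2 scaling at -0.47 and -0.52. Under them the library folds were 87.5 and 84.3 for Il33, 52.0 and 53.9 for Il5, 312 and 323 for Il13 and 408 and 423 for Calca. Without non-immune classes in the CD45-positive library and immune classes in the other, the Il33 fold was 1143. With all deposited barcodes the Il33 level was 636 CPM and the Il13 fold 247, and with the stricter filter Il33 was 655 CPM. Under that filter oligodendrocyte-like Il33 was 1903 CPM and 24.2-fold, and the ILC2-like Calca fold was 761.

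At resolution 0.5 and with Scrublet calls kept no class was named ILC2-like, and the unnamed cluster that held all 177 cells was used. At resolution 0.5 this gave Il1rl1 500 CPM (64.0-fold), Il5 34.8, Areg 193 (97.3-fold) and Calca 7087 CPM (431-fold). With the calls kept it gave Il1rl1 468 CPM (59.7-fold), Il5 32.4, Areg 177 (89.5-fold) and Calca 6567 CPM (377-fold), and Il33 was 639 CPM in the library and 1786 CPM (16.3-fold) in oligodendrocyte-like cells. At resolution 2 T cell-like Il13 was 0.101 CPM. With each cell weighted equally, Il33 was 1497, Il1rl1 941, Il5 31.5, Areg 213 and Calca 9431 CPM in their main classes, and T cell-like Il13 was 5.74 CPM. Unthinned shares of cells with a UMI were 87.6% for Il33, 88.7% for Il1rl1, 15.8% for Il5 and 23.2% for Areg, and shares thinned to 2000 UMIs were 75.5% for Il33 and 71.2% for Il1rl1.

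Without the cell with the most UMIs of a gene, the library levels were 1.08 CPM for Il5 (29.8-fold), 0.622 for Il13 (17.1-fold), 6.18 for Areg and 194 for Calca. The ILC2-like levels were then 34.8 for Il5, 220 for Areg and 9320 CPM for Calca, and T cell-like Il13 was 0.389 CPM. Without the 5 such cells the library levels were 633 for Il33, 19.3 for Il1rl1, 0.556 for Il5 (15.3-fold), 0.136 for Il13 (3.73-fold), 3.86 for Areg and 168 CPM for Calca. Oligodendrocyte-like Il33 was then 1815 CPM, T cell-like Il13 was 0.0 CPM, and ILC2-like levels were 20.4 for Il5 (44.8-fold), 101 for Areg (49.3-fold) and 8335 CPM for Calca (489-fold). In ILC2-like cells, a UMI of Il5, Il13 or Areg was seen in 28, 4 and 41 of 177, and whether depth or the number of expressing cells sets this cannot be told apart.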
